A study of Mus musculus with 10 samples.

Results

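Chemokine ligands and receptors were examined in mouse small intestine organoids that received TNF together with pegtarazimod or with its vehicle. The members were all genes whose array symbol names a CC or CXC chemokine, a CC or CXC receptor or an atypical chemokine receptor, with Cx3cl1, Cx3cr1, Xcl1, Xcr1, Pf4 and Ppbp. This gave 61 of the 19505 genes measured, 40 ligands and 21 receptors, with 1 probe set per gene. Organoids are self-organising cultures of intestinal epithelium grown in Matrigel, here from BALB/c mice. All of them were exposed to recombinant murine TNF at 20 ng/ml for 48 h. In 5 samples TNF was combined with pegtarazimod at 5 mg/ml, a peptide coupled to PEG that blocks the classical complement pathway. The other 5 samples had PEG at 2.625 mM as vehicle. No organoids without TNF were analysed here, so each comparison holds for TNF-exposed cultures only. The samples are called biological replicates in the series, with no word on whether they came from separate mice or cultures, so the spread behind the p-values is that between these samples and may be partly technical.

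Chemokines are small secreted proteins that direct the movement of leukocytes through G protein-coupled receptors. Epithelial cells of the gut supply many of the ligands, some at rest and others after TNF activates the transcription factor NF-kB, whereas most of the receptors are used by leukocytes. Cxcl16 and Cx3cl1 differ from the rest in being made as membrane-anchored proteins, from which the proteases Adam10 and Adam17 release a soluble form.

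With pegtarazimod, Cxcl16 was 2.07-fold lower and Cx3cl1 was 1.40-fold higher, and no other member passed the test. The count was 2 of 61 members (3.28%), 1 higher and 1 lower, against 4.89% of all 19505 genes called by limma with Benjamini-Hochberg adjustment at 0.05 (2.50% higher and 2.39% lower). The share among members was thus not above that of all genes. The sets differ in level, since 54.1% of members and 31% of all genes lay near background, and both called members lay above that limit. An unadjusted p below 0.05 was reached by 10 members, against 19.0% of all genes. The median difference over the 61 members was 0.03 on the log2 scale, with 41 above 0 and 20 below. The median over all genes was 0.0029, with 50.7% above 0. Among the 28 members that lay above the background limit defined next, the median difference was 0.04.

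Much of the family, receptors above all, was measured near background. The deposited table holds no detection calls, so the limit was set at the 95th percentile of the mean levels of 1399 olfactory and vomeronasal receptor genes, which gut epithelium is not known to use. It stood at 4.31 on the log2 scale. In both groups 33 of the 61 members (54.1%) had a mean at or below this limit, compared with 31% of all genes. Of the receptors 16 of 21 were near background, and of the ligands 17 of 40. The count depends on the limit, and was 24 at the 90th percentile (3.96) and 12 at the 75th (3.36). At the median of the arrays, 5.60 to 5.66, it was 47. A probe set's brightness also depends on its sequence, so the levels of different genes were not ranked. For a gene near background a difference in expression may be understated.

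**Figure D1:**
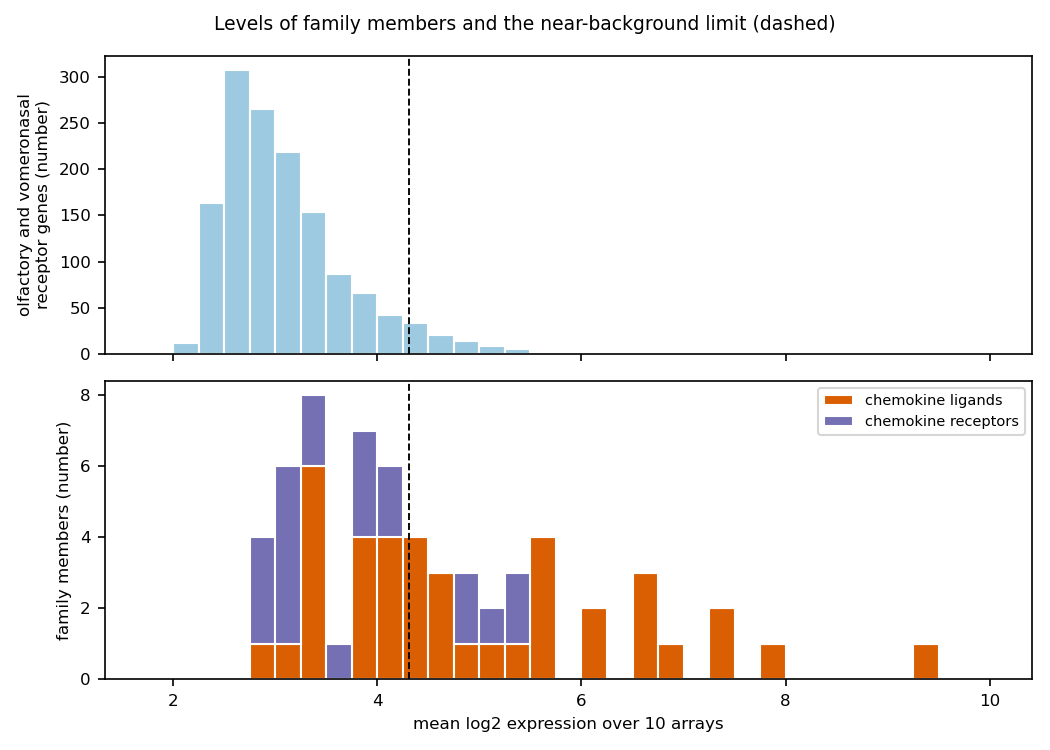
Number of olfactory and vomeronasal receptor genes (upper panel, 1399 genes) and of chemokine family members (lower panel, 40 ligands and 21 receptors, stacked) by mean log2 expression over 10 arrays. The dashed line is the near-background limit of 4.31, and 16 of 21 receptors and 17 of 40 ligands lie at or below it in both groups.

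Replicates 1 and 2 stood apart from replicates 3 to 5 within each group, although the labels name no batch. The first principal component left after group means were removed held 33.4% of the variance. It placed replicates 1 and 2 between -27.57 and -11.99 and the others between 8.20 and 21.19. Differences within these subsets, from a model with 4 groups and a pooled spread, are therefore given beside the results. Because the split was seen in these same arrays, p-values that use it, as a block or within subsets, may be too small. Leukocyte marker genes were at most partly detected. Of 37 measured leukocyte markers 23 were near background, compared with 31% of all genes. By limma 0 of the 37 passed, against 4.89% of all genes. The pan-leukocyte gene Ptprc averaged 4.09 with pegtarazimod and 4.08 with vehicle, and the T cell gene Cd3e 4.15 and 4.10. Lcp1, also listed as a leukocyte marker, averaged 10.05 and 10.21, and Lyz2 7.39 and 7.86. The cell source of the Lcp1 and Lyz2 signals was not tested. Lyz2 did not pass over all arrays (difference -0.47, limma adjusted p = 0.248) but did with the subsets as a block (0.0148) and within replicates 3 to 5 (0.0345). All 10 epithelial markers were above the limit.

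The Cxcl16 transcript encodes a protein that is a scavenger receptor and the ligand of Cxcr6, a receptor of T cells and NKT cells. Its log2 levels were 6.52, 6.82, 7.81, 7.81 and 7.50 with pegtarazimod (replicates 1 to 5), against 7.53, 8.24, 8.57, 8.91 and 8.45 with vehicle. Every pegtarazimod array was below the vehicle array of the same number, though the numbers are not known to mark pairs. The groups overlapped, because vehicle 1 was lower than pegtarazimod 3 and 4. The means were 7.29 ± 0.59 and 8.34 ± 0.51 (SD, n = 5 each), a difference of -1.05 ± 0.27 (SE; limma adjusted p = 0.0421). Within replicates 1 and 2 the difference was -1.22 (limma adjusted p = 0.00615), and within replicates 3 to 5 it was -0.94 (0.0125). In both groups the lowest levels were those of replicates 1 and 2. The call over all 10 arrays was marginal. Its adjusted p exceeded 0.05 when pegtarazimod 1, 2 or 5 or vehicle 2, 3, 4 or 5 was left out (differences of -1.10 to -0.86, limma adjusted p = 0.0582 to 0.112). With an intensity trend and robust priors it was 0.113, whereas with the subsets as a block it was 2.91e-04. With the replicate number as a block the limma adjusted p was 1.11e-04, and the SE of the difference 0.11.

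Cx3cl1, or fractalkine, is the membrane-bound ligand of Cx3cr1, the receptor of intestinal macrophages that extend processes between epithelial cells. Its log2 levels were 7.80, 7.68, 7.62, 7.23 and 7.33 with pegtarazimod, against 7.05, 7.24, 6.95, 6.96 and 7.04 with vehicle. The groups met at the edge only, where pegtarazimod 4 and vehicle 2 had nearly the same value. The means were 7.53 ± 0.24 and 7.05 ± 0.12 (SD, n = 5 each), a difference of 0.48 ± 0.12 (SE; limma adjusted p = 0.0289). Replicates 1 and 2 alone gave a difference of 0.59 (limma adjusted p = 0.0329), and replicates 3 to 5 alone one of 0.41 that missed the threshold (0.0976). It also lost its call when pegtarazimod 1, 2 or 3 or vehicle 1, 3, 4 or 5 was left out (differences of 0.42 to 0.49, limma adjusted p = 0.0512 to 0.0849). With the subsets as a block its adjusted p was 0.00504.

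The receptors that answer these ligands were near background. Cxcr6 averaged 3.47 with pegtarazimod and 3.10 with vehicle, and Cx3cr1 averaged 3.47 and 3.46. The transcript of the sheddase Adam10 averaged 9.62 ± 0.19 and 9.64 ± 0.04 (SD, n = 5 each; limma adjusted p = 0.953). That of Adam17 averaged 7.84 ± 0.18 and 7.75 ± 0.14 (limma adjusted p = 0.732). The 95% interval of the Adam10 difference was -0.22 to 0.19 and that of Adam17 -0.14 to 0.31. Markers of some epithelial cell types also differed between groups, where 2.50% of all genes were called higher and 2.39% lower. Of 5 tuft cell markers 0 were called, with a median difference of 0.01. The mean log2 level of 6 enterocyte markers was 9.35 to 10.72 with pegtarazimod and 8.44 to 9.19 with vehicle (2 called higher), and that of 6 goblet cell markers 8.56 to 8.90 and 7.56 to 7.90 (5 higher). The mean of 6 Paneth cell markers was 7.11 to 8.22 and 8.02 to 9.04 (3 lower), and that of 5 stem cell markers 7.30 to 8.17 and 8.87 to 9.15 (4 lower). Their part in the differences of Cxcl16 and Cx3cl1 was not tested. In whole organoids, fewer cells of a type and less RNA per cell cannot be told apart.

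**Figure D2:**
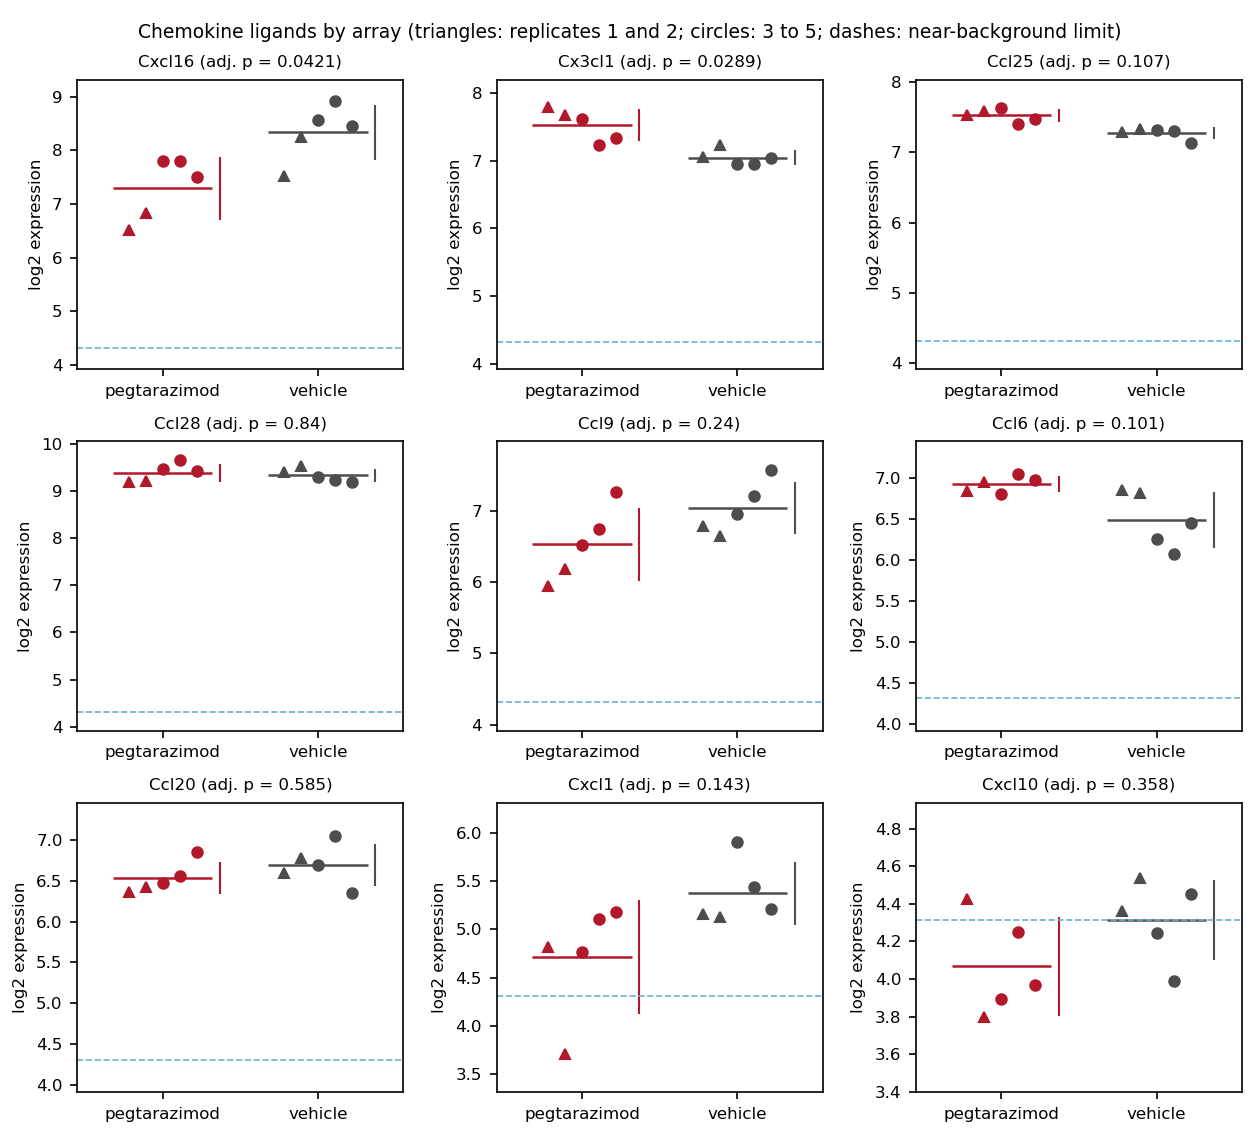
Log2 expression of 9 chemokine ligands on each array, pegtarazimod left and vehicle right, with the group mean (horizontal line) and SD (vertical line), n = 5 each; triangles are replicates 1 and 2, circles replicates 3 to 5, and dashes the near-background limit of 4.31. Cxcl16 was lower and Cx3cl1 higher with pegtarazimod, the other 7 genes did not pass the test, and the axis range differs between panels.

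The ligands of Cxcr2 attract neutrophils, and several are standard NF-kB targets in epithelium. None of the 6 neutrophil-attracting ligands listed here under that role passed, and 4 of them (Cxcl2, Cxcl5, Cxcl15 and Ppbp) were near background. Cxcl1 had log2 levels of 4.81, 3.71, 4.77, 5.10 and 5.18 with pegtarazimod, against 5.16, 5.13, 5.91, 5.44 and 5.21 with vehicle. All arrays but pegtarazimod 5 stood apart by group, and pegtarazimod 2 lay far below the rest. Its difference was -0.65 ± 0.24 (SE; 95% interval -1.16 to -0.14; limma adjusted p = 0.143). Within the subsets it was -0.88 and -0.50 without passing in either (0.108 and 0.345). A block for the subsets gave a limma adjusted p of 0.0392. The close relative Cxcl3 averaged 6.17 ± 0.10 with pegtarazimod and 6.29 ± 0.16 with vehicle (SD, n = 5 each), a difference of -0.12 with an interval of -0.33 to 0.09. Cxcl2 was at 4.30 with pegtarazimod and 4.29 with vehicle. Its interval of -0.24 to 0.26 is one of a probe set near background.

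The promoter sequences of these genes show a feature that the choice of members did not use. Upstream sequence was found for 46 of the 61 members in a RefSeq table of build GRCm38.p6, as 50 entries of 250 bases before the annotated start. The NF-kB consensus, searched on both strands, occurred in 11 of the 50 entries (22%), against 7.25% of 32851 entries for all genes. Palindromic matches overlap and were counted once per entry. The entries with a match belonged to Cxcl1, Cxcl2, Cxcl3, Cxcl10, Ccl1, Ccl9, Ccl20, Ccr1, Ccr3, Ccr6 and Ackr2, of which none passed the test. The search did not cover members without an entry, Cxcl16 among them. A match is a description of the letters and says nothing of binding in these cells. The 250 bases of Cxcl1 (chr5:90890995-90891244, plus strand) are shown 5′ to 3′ with the match in capitals, followed by the stretches of 60 bases around the matches of Cxcl2 (chr5:90903777-90903836, plus strand), Cxcl3 (chr5:90786003-90786062, plus strand) and Ccl20 (chr1:83116661-83116720, plus strand), and 120 bases for Cxcl10 (chr5:92348956-92349075, minus strand), because these genes are well-known targets of TNF.
Cxcl1: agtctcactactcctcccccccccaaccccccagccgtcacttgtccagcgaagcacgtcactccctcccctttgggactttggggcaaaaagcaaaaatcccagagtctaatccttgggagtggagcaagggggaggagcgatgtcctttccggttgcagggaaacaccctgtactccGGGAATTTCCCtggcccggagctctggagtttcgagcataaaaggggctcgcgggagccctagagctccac
Cxcl2: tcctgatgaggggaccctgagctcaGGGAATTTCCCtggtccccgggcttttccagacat
Cxcl3: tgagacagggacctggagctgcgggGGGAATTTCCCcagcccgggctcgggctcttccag
Ccl20: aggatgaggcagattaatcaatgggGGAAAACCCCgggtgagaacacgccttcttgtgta
Cxcl10: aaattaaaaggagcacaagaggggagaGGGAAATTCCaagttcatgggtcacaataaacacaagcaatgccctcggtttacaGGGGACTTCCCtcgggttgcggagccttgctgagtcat
Cxcl1, Cxcl2 and Cxcl3 carry the same 11 letters, which begin 71, 97 and 73 bases before the annotated start, and their measured differences were -0.65, 0.01 and -0.12. Cxcl10 holds 2 separate stretches of matches, and Ccl20 has 1.

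The entry of Cx3cl1, the member that rose (chr8:94771930-94772179, plus strand), held no match to the NF-kB consensus in these 250 bases. Nor did it hold the AP-1 letters TGANTCA, which occurred in 12% of member entries and 6.75% of all entries. It held the TATA letters TATAAA, given in capitals, which end directly before the annotated start and occurred in 28.0% of member entries and 12.4% of all entries.
Cx3cl1: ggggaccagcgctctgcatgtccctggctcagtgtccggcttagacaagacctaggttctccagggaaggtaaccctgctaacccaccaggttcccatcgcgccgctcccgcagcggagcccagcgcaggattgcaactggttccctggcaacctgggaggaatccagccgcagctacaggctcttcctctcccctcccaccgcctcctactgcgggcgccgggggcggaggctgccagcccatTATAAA

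The Cxcr3 ligands Cxcl9, Cxcl10 and Cxcl11 are interferon-inducible attractants of T cells and NK cells. Cxcl10 had log2 levels of 4.43, 3.80, 3.89, 4.25 and 3.97 with pegtarazimod, against 4.36, 4.54, 4.24, 3.99 and 4.45 with vehicle. The groups overlapped widely, and the vehicle mean of 4.32 lay only just above the background limit. The difference was -0.25 ± 0.14 (SE; limma adjusted p = 0.358). Cxcl9, near background, differed by -0.26 and Cxcl11 by -0.05, neither passing (limma adjusted p = 0.405 and 0.894). Pf4, the platelet factor, averaged 6.58 in pegtarazimod samples and 6.58 in vehicle samples, with an interval of -0.22 to 0.22 for the difference.

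The remaining CXC ligands serve mainly in steady-state tissue. Cxcl12, the ligand of Cxcr4 and Ackr3, averaged 6.08 ± 0.21 with pegtarazimod and 5.95 ± 0.08 with vehicle (SD, n = 5 each; difference 0.12, limma adjusted p = 0.610). Cxcl14 averaged 4.92 and 5.02 (difference -0.09, limma adjusted p = 0.632). Cxcl13, which organises lymphoid follicles, and Cxcl17 were near background and did not pass.

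Among inflammatory CC ligands, which recruit monocytes, eosinophils and T cells, 0 of 12 passed by limma, and 6 were near background. An unadjusted limma p below 0.05 was reached by 3 of them, 1 higher and 2 lower, against 19.0% of all genes. Ccl6 and Ccl9, neighbouring mouse genes for myeloid attractants that are also listed as markers of M cells, differed in opposite directions. Ccl6 had log2 levels of 6.85, 6.95, 6.80, 7.04 and 6.97 with pegtarazimod, against 6.86, 6.82, 6.25, 6.08 and 6.45 with vehicle. The vehicle arrays 3 to 5 were below every pegtarazimod array, whereas vehicle 1 and 2 lay within the pegtarazimod range. Its difference was 0.43 ± 0.14 (SE; limma adjusted p = 0.101), with 0.06 in replicates 1 and 2 (0.902) and 0.68 in replicates 3 to 5 (0.00705). The difference between these subsets did not pass its own test (limma interaction adjusted p = 0.414).

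Ccl9 had log2 levels of 5.94, 6.19, 6.53, 6.75 and 7.26 with pegtarazimod, against 6.79, 6.66, 6.96, 7.21 and 7.58 with vehicle. Each pegtarazimod array was below the vehicle array of its number, as was also so for Cxcl1, but the groups overlapped. The numbers are not known to mark pairs. The difference was -0.51 ± 0.22 (SE; limma adjusted p = 0.240), and -0.66 and -0.40 within the subsets. With the subsets as a block both passed, Ccl6 at a limma adjusted p of 0.0392 and Ccl9 at 0.0420. Of the 6 genes in the M cell list, which holds Ccl6 and Ccl9 too, 0 passed by limma over all genes. Spib and Gp2 were near background, at 3.80 and 3.27 with pegtarazimod and 4.14 and 3.23 with vehicle. Anxa5 and Tnfaip2 lay above the limit, at 7.13 and 5.09 with pegtarazimod and 7.39 and 4.72 with vehicle.

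The monocyte attractant Ccl2 averaged 5.34 ± 0.22 with pegtarazimod and 5.32 ± 0.12 with vehicle (SD, n = 5 each), with an interval of -0.22 to 0.26 for the difference. Ccl7 averaged 5.62 and 5.51, and the eosinophil attractant Ccl24 5.62 and 5.46. Ccl4, an attractant of monocytes and T cells, averaged 4.57 and 4.41. None of these 4 passed (limma adjusted p = 0.557 to 0.950). Ccl3, Ccl5, Ccl8, Ccl11, Ccl12 and Ccl26 were near background, and their differences lay between -0.32 (Ccl8) and 0.17 (Ccl11).

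The mucosal ligands were well above the background limit. Ccl25, through which the small intestine draws Ccr9-bearing lymphocytes, had log2 levels of 7.52, 7.59, 7.62, 7.40 and 7.47 with pegtarazimod, against 7.29, 7.33, 7.31, 7.30 and 7.13 with vehicle. It was the only member whose groups did not overlap, against 6.71% of all genes without overlap. The difference was small at 0.25 ± 0.08 (SE; 95% interval 0.07 to 0.43) and missed the threshold (limma adjusted p = 0.107). It was 0.25 in replicates 1 and 2 and 0.25 in replicates 3 to 5.

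Ccl28, a mucosal attractant of IgA plasma cells through Ccr10, had log2 levels of 9.18, 9.22, 9.47, 9.65 and 9.43 with pegtarazimod, against 9.41, 9.54, 9.29, 9.23 and 9.19 with vehicle. The groups overlapped fully, with a difference of 0.06 and an interval of -0.17 to 0.29. Replicates 1 and 2 differed by -0.27 and replicates 3 to 5 by 0.28, neither passing (limma adjusted p = 0.304 and 0.221). Ccl20, the ligand of Ccr6 and an attractant of dendritic cells and B cells to the epithelium over lymphoid follicles, had log2 levels of 6.36, 6.42, 6.47, 6.55 and 6.85 with pegtarazimod, against 6.59, 6.78, 6.69, 7.05 and 6.35 with vehicle. The ranges overlapped, and the difference of -0.16 ± 0.13 (SE; 95% interval -0.44 to 0.12) did not pass (limma adjusted p = 0.585).

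Ccl21a, a lymphoid homing ligand, averaged 5.67 ± 0.22 with pegtarazimod and 5.41 ± 0.16 with vehicle (SD, n = 5 each; difference 0.25, limma adjusted p = 0.25). Replicates 1 and 2 differed by -0.06 and replicates 3 to 5 by 0.47 (limma adjusted p = 0.899 and 0.0586). Its near-identical copies Ccl21b and Ccl21c, for which probes may share signal, were near background and differed by 0.24 and 0.18. Ccl27a averaged 5.67 and 5.52, Ccl22 4.60 and 4.63, and Ccl1 4.50 and 4.62, and none of these passed. The C chemokine Xcl1 averaged 4.67 and 4.64. Ccl17 and Ccl19 were near background.

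**Figure D3:**
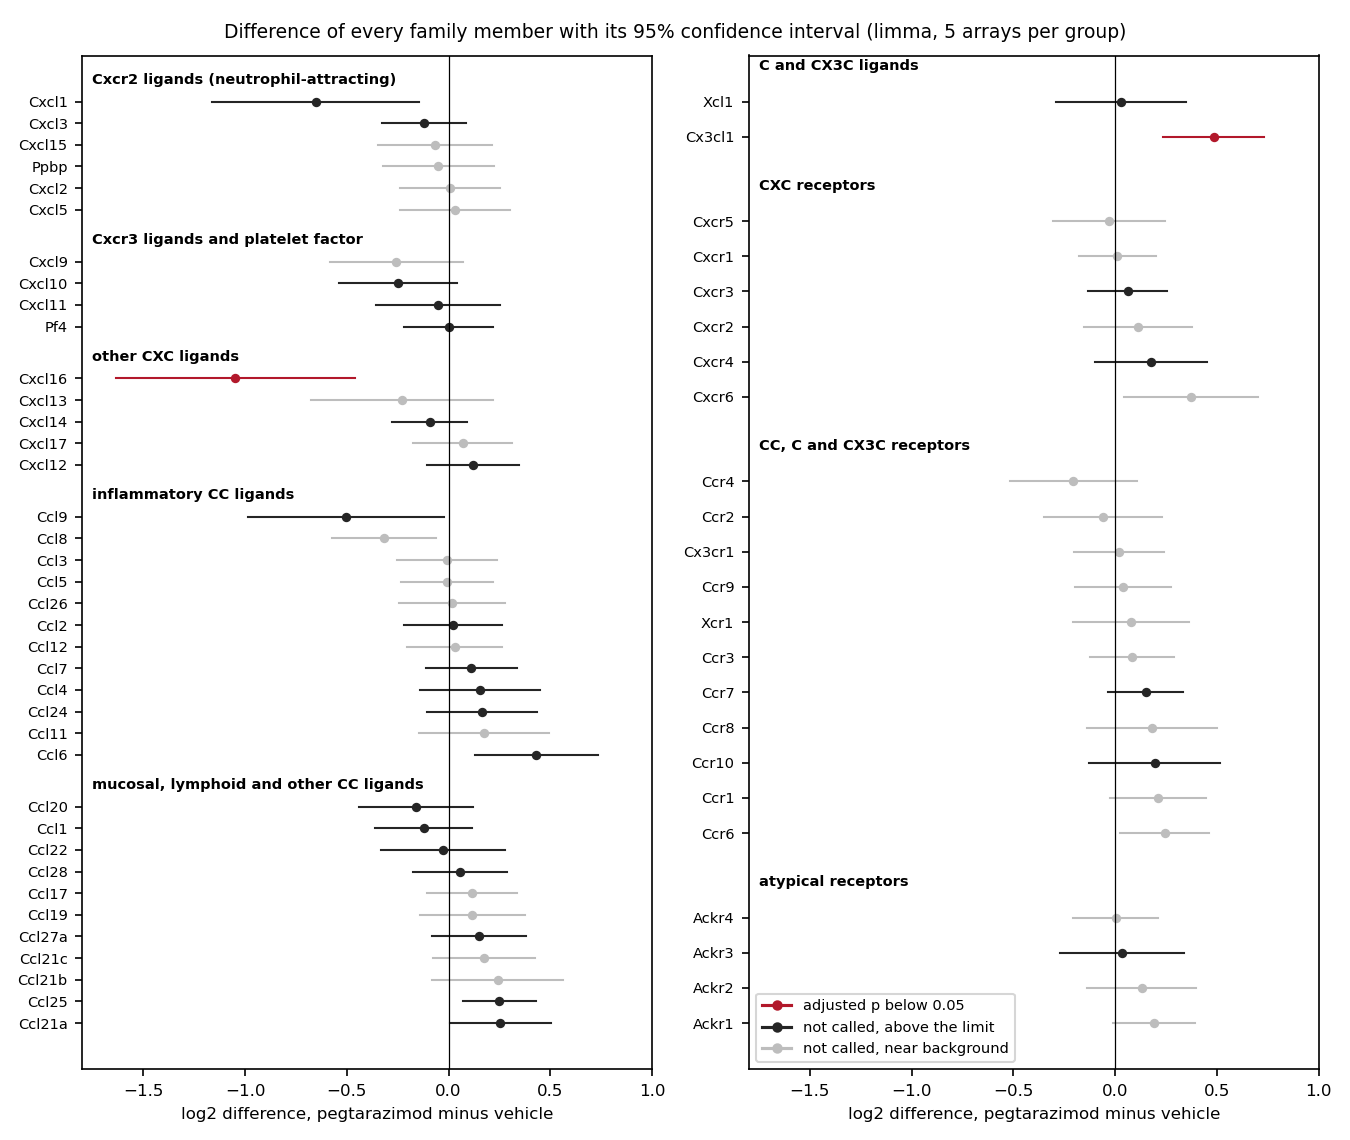
Log2 difference, pegtarazimod minus vehicle, of all 61 members with its 95% confidence interval from limma (5 arrays per group), grouped by role. Cxcl16 at -1.05 and Cx3cl1 at 0.48 passed the test (red), members near background are grey, and the other members are black.

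The receptors showed little signal. None of 21 passed, and the differences of the 21 lay between -0.21 and 0.37. An unadjusted limma p below 0.05 was reached by 2 of them, against 19.0% of all genes. Above the limit were Cxcr4 at 5.11 ± 0.27 with pegtarazimod and 4.93 ± 0.16 with vehicle (SD, n = 5 each), and the atypical receptor Ackr3, which takes up Cxcl12, at 5.46 ± 0.13 and 5.43 ± 0.34. Their differences were 0.18 with an interval of -0.10 to 0.45 and 0.03 with an interval of -0.27 to 0.34. Cxcr3 averaged 5.03 and 4.97, the lymphoid homing receptor Ccr7 5.48 and 5.33, and Ccr10 5.03 and 4.84. Their limma adjusted p-values were 0.790, 0.383 and 0.553. Near background were Cxcr1, Cxcr2, Cxcr5, Cxcr6, Ccr1, Ccr2, Ccr3, Ccr4, Ccr6, Ccr8, Ccr9, Xcr1, Cx3cr1, Ackr1, Ackr2 and Ackr4. The mucosal receptor Ccr9, whose ligand Ccl25 was detected, averaged 2.80 with pegtarazimod and 2.76 with vehicle. Of the 21 receptors, 16 of them near background, 18 had a difference above 0, and none was called. Over all genes, of which only 31% were near background, 50.7% had a difference above 0, so the 2 sets are unlike in level.

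Many members lie beside each other in the genome, and 37 of the 60 that could be placed in the GRCm38.p6 gene table formed 10 runs of members at most 3 protein-coding genes apart. The run of Cxcl5, Ppbp, Pf4, Cxcl3, Cxcl15, Cxcl1 and Cxcl2 had 0 of 7 called, with differences from -0.65 (Cxcl1) to 0.03 (Cxcl5). The run of Ccl5, Ccl9, Ccl6, Ccl3 and Ccl4 had differences from -0.51 to 0.43. In the run of Ccl22, Cx3cl1 and Ccl17, Cx3cl1 alone was called, and its neighbours differed by -0.03 and 0.12.

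Within replicates 1 and 2, 2 of 61 members were called (Cxcl16 and Cx3cl1), against 6.30% of all genes. Within replicates 3 to 5, 3 members were called (Cxcl16 lower, Ccl6 and Ccr8 higher), against 3.34% of all genes. Ccr8 is a member near background, at 4.02 with pegtarazimod and 3.83 with vehicle. With the subsets as a block, 5 members were called (Cxcl16, Cxcl1 and Ccl9 lower, Cx3cl1 and Ccl6 higher), against 9.33% of all genes. The difference had the same direction in both subsets for 33 of 61 members, a count with no share over all genes to set it against. No member had a difference between subsets that passed its own test, the lowest limma interaction adjusted p being 0.248 (Ccr8).

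**Figure D4:**
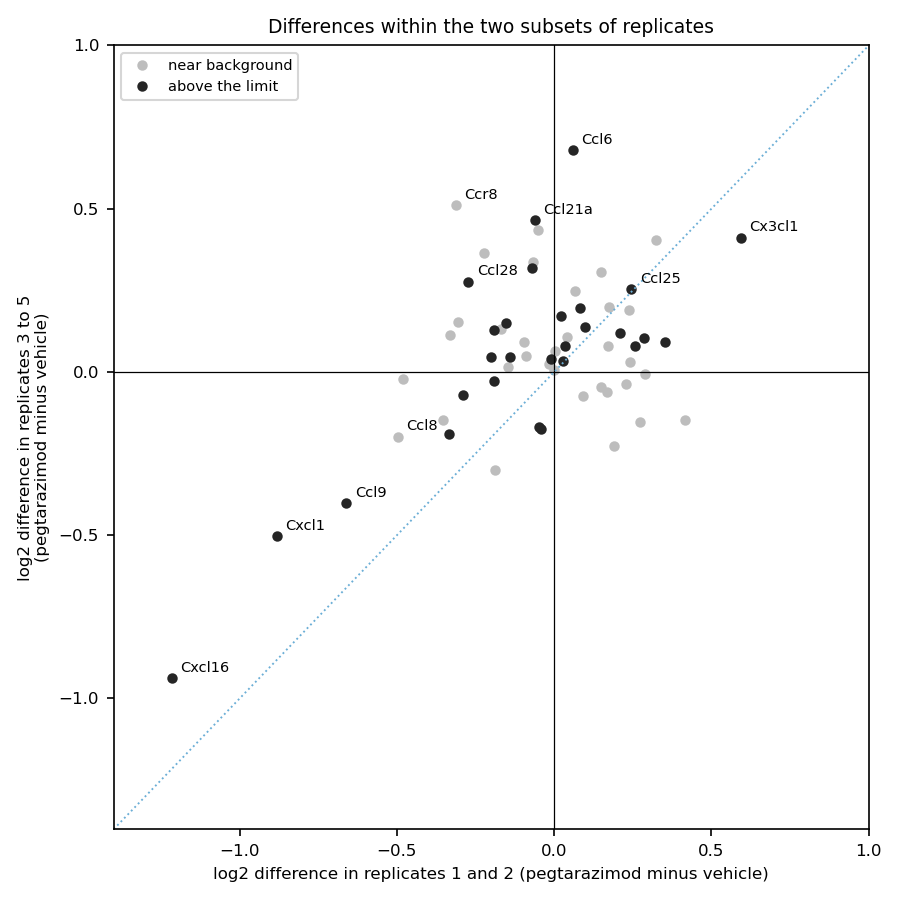
Log2 difference, pegtarazimod minus vehicle, of the 61 members within replicates 1 and 2 (horizontal axis) and within replicates 3 to 5 (vertical axis), with members near background in grey and the dotted line marking equal values. Cxcl16 lies at -1.22 and -0.94, Cx3cl1 at 0.59 and 0.41, and Ccl6 at 0.06 and 0.68.

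Of the genes that carry the signal of chemokine receptors, 49 were measured, and 2 passed, against 4.89% of all genes, so the share was near that of all genes. Vav3, a guanine nucleotide exchange factor, had log2 levels of 6.81 to 7.27 with pegtarazimod and 7.73 to 8.41 with vehicle, without overlap, as for 6.71% of all genes. It fell by 0.97 ± 0.14 (SE; limma adjusted p = 0.00155), and by 0.91 and 1.02 within the subsets. The small GTPase gene Rap1a, which acts in integrin activation, lay at 7.92 to 8.28 with pegtarazimod and 7.45 to 7.81 with vehicle, also without overlap. It rose by 0.49 ± 0.10 (SE; limma adjusted p = 0.0134). Within replicates 1 and 2 its difference was 0.56 (limma adjusted p = 0.0346), and within replicates 3 to 5 it was 0.45, where the call was lost (0.0554). Arrb1 did not pass over all arrays (difference 0.44, limma adjusted p = 0.213). It did with the subsets as a block (0.00777) and within replicates 3 to 5 (0.0392). Rgs2 passed within replicates 3 to 5 (difference -0.64, limma adjusted p = 0.0193) and Tiam1 within replicates 1 and 2 (-0.65, 0.0465), but neither over all arrays nor with that block. The median difference of these 49 genes was 0.01. Of 12 genes that handle or bind chemokines outside the family, 0 passed by limma over all genes, and their median difference was -0.06. The peptidase gene Dpp4, whose product trims chemokines such as Cxcl12, did not overlap between groups, at 7.86 to 8.08 with pegtarazimod and 7.56 to 7.80 with vehicle, but did not pass (difference 0.22, limma adjusted p = 0.188). Gpr35, a receptor that has been proposed for Cxcl17, differed by 0.44 (limma adjusted p = 0.0639). A block for the subsets brought this to 0.0252, and it also passed within replicates 3 to 5 (difference 0.58, limma adjusted p = 0.0422). The heparan sulfate proteoglycan gene Sdc1 averaged 10.31 and 10.42 (limma adjusted p = 0.567).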

How the data were processed

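RNA of 10 organoid samples was measured on 10 single-colour arrays, 5 with pegtarazimod and 5 with vehicle, grouped by the sample titles. The authors deposited log2 values for each probe set, and the submitters' processing notes name oligo and RMA. RMA corrects background and equalises the distributions of the arrays, which would hide a shift of most genes. Versions and annotation: not given in the sources used here.

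Of 22203 probe sets, 19572 had 1 symbol in the platform annotation, 0 had several and 2631 were unnamed and left out. They gave 19505 genes, with the highest mean over all arrays choosing between probe sets of 55 genes (1 of them a member, Ccl21b, whose 2 probe sets differed by 0.24 and 0.18). All 19572 identifiers matched the GRCm38.p6 gene table. Correlations between arrays were 0.983 to 0.992 within pegtarazimod, 0.989 to 0.994 within vehicle and 0.974 to 0.991 between groups, and every array was kept as a separate sample. The number of arrays limits the precision.

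Differences are pegtarazimod minus vehicle, fitted in R 4.3.3 by lmFit and eBayes of limma 3.58.1 without covariates over all 19505 genes, with two-sided p-values adjusted by Benjamini-Hochberg and a threshold of 0.05. The fits were tested on simulated data. Every member that passed or lay above the background limit was named with its values, and of the 2 signalling lists every gene that passed. Genes named besides, such as Adam10, Adam17, Dpp4, Gpr35 and Sdc1, were chosen after their values were seen. The members and lists were chosen with earlier results of these data known. Alternatives were other normalisation, centring, filters on dim genes, priors, array weights, blocks and leaving out each array. Plots were made in matplotlib 3.10.9 under Python 3.11.15.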

Additional observations from a re-analysis of the deposited data

Results flagged for a closer look

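Of 56 groups of 5 values (28 members above the background limit, in each of 2 groups), 3 held an array whose gap to the nearest other was more than 0.71 of the group's range. Chance gives about 1 in 20, and 3 of 56 is near that rate. Pegtarazimod 2 had a Cxcl1 level of 3.71, against 4.77 to 5.18 in the other pegtarazimod arrays. Without it the Cxcl1 difference was -0.40 (limma adjusted p = 0.219), against -0.65 over all arrays. Vehicle 5 had a Ccl25 level of 7.13, against 7.29 to 7.33 in the other vehicle arrays, and a Pf4 level of 6.36, against 6.60 to 6.68.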

How the results depend on the processing

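Cxcl16 stayed lower and Cx3cl1 higher under all 21 alternatives, but their calls did not hold throughout. Without 1 array, Cxcl16 differed by -1.25 to -0.86 and Cx3cl1 by 0.42 to 0.56, and 7 of the 10 omissions ended each call, at fewer samples. Cxcl16 also lost its call with an intensity trend and robust priors (-1.05), and Cx3cl1 within replicates 3 to 5 (0.41), and the cause was not tested. The number of members called higher was 2 without the dimmest 50% of genes, 2 with a block for replicates 1 and 2 against 3 to 5, 2 within replicates 3 to 5, and 0 to 1 without 1 array. The number called lower was 0 with the intensity trend, 3 with that block, and 0 to 1 without 1 array. Of all genes, 1820 were called with that block and 437 to 1245 without 1 array (omitting pegtarazimod 1 gave 552, pegtarazimod 2 gave 522, vehicle 3 gave 437, vehicle 4 gave 498 and vehicle 5 gave 562). Over the 2 signalling lists together, 4 genes were called with that block (Vav3, Rap1a, Arrb1 and Gpr35), against 9.33% of all genes. Within replicates 3 to 5 they were 4 as well (Vav3, Arrb1, Rgs2 and Gpr35), against 3.34% of all genes. In the main fit they were 2. Near background lay 12 members at the 75th percentile and 19 at the lower quartile of the arrays, against 33. Of the 26 other members above the limit, 22 were called under no alternative, and Ccl6, Ccl9, Cxcl1 and Ccl25 under 8 of the values in all, none of them against its main direction.

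Replicate numbers are shared between groups. With group means removed, same-numbered samples correlated by 0.0993 for number 3 and by 0.130 to 0.310 for the others. Pegtarazimod 1 to 4 each correlated best with the vehicle sample of their own number, and pegtarazimod 5 with vehicle 3. The labels name no pairs, so the main fit did not pair the samples. Whether the numbers mark pairs is not known. With the replicate number as a block, 1606 genes, 3 members lower (Cxcl16, Ccl9 and Cxcl1), 1 higher (Cx3cl1) and 6 signalling genes were called.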
